A study of Mus musculus with 5 samples.

Results

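Small nucleolar RNAs (snoRNAs) are short RNAs that steer the chemical modification of other RNAs, above all ribosomal RNA. Their signals were read in Ter119+ marrow cells of mice with 2 mutant copies of Polg, which encodes the polymerase that copies mitochondrial DNA, and of wild-type (WT) mice. A snoRNA was taken as a probe set that the platform's annotation gives a single symbol starting with Snora or Snord and a digit, and the brightest probe set was kept where a symbol had more than 1. This left 73 snoRNAs of 22180 genes measured, 26 of the box H/ACA class (Snora) and 47 of the box C/D class (Snord). They came from 75 probe sets. A further 43 probe sets name a snoRNA beside another gene and are not members. Snord3a, Snord32a, Snord33, Snord34, Snord115 and Snord116 were not analysed here.

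The series holds 5 one-colour arrays, 3 from Polg mutant mice (Polgtm1Lrsn mt/mt, known as mtDNA-mutator mice) and 2 from WT mice (Polgtm1Lrsn wt/wt), all on a C57BL/6 background. WT and mutant mice came from the same kind of cross, in which both parents were Atg7 flox/flox and Polg heterozygous and the father carried Epo-cre (ki/wt), so every mouse of either group is Atg7 flox/flox by descent. Which mice carried Cre, their ages, and whether an array held 1 animal or a pool are not stated in the labels. The mice had been bled, according to the design text, although the treatment field reads none. Marrow was depleted of CD45+ cells, selected for Ter119, and its column-purified total RNA (100 ng) was labelled. Deposited values are log2 expression, from 1.43 to 14.1, with array medians of 5.10 to 5.13. In bulk cells, fewer cells of a type and less RNA per cell cannot be told apart.

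Box C/D snoRNAs pair with a target RNA and place a ribose methyl group on it, through a particle with fibrillarin, NOP56, NOP58 and SNU13. Box H/ACA snoRNAs direct the change of uridine to pseudouridine, through dyskerin, GAR1, NHP2 and NOP10. A few members of each class, among them U17 (Snora73a and Snora73b), U8 (Snord118) and U3, serve the cutting of the ribosomal RNA precursor instead. Most mammalian snoRNAs lie in introns of a host gene and are trimmed from the spliced intron, and many hosts encode ribosomal proteins or nothing at all, as in Gas5 and the Snhg genes. The members here had a median annotated length of 118.5 nucleotides for box H/ACA and 68 for box C/D in RefSeq (GRCm38.p6). The probe sets cannot separate a mature snoRNA from unspliced host RNA that holds the same sequence, and column kits of the type used recover short RNA poorly. The snoRNA values are therefore signals at snoRNA sequences.

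As a group, snoRNAs were higher in Polg mutant cells than in WT cells, in both classes. The median log2 difference, Polg mutant minus WT, was 0.49 over the 26 box H/ACA snoRNAs and 0.39 over the 47 box C/D snoRNAs, against 0.00 over all 22180 genes. The gap between the 2 class medians was 0.103 and was not tested. Within a genotype, the SD between arrays of the class median level, pooled over both genotypes, was 0.207 (box H/ACA) and 0.104 (box C/D). The median level of a class is a different measure from its median difference. For box H/ACA that level was 7.07, 6.60 and 6.77 in Polg mutant cells against 6.71 and 6.54 in WT cells, with overlap. For box C/D it was 6.79, 6.63 and 6.83 in Polg mutant cells against 6.31 and 6.44 in WT cells, without overlap. Of box H/ACA snoRNAs 21 had a positive difference, 4 a negative one and 1 none, and of box C/D snoRNAs 37, 9 and 1. The 3 Polg mutant arrays all exceeded both WT arrays for 14 box H/ACA and 24 box C/D snoRNAs, 38 of 73 (52.1%), where 8.36% of all genes did so. The opposite, 3 mutant arrays under both WT arrays, held for 0 snoRNAs, against 9.73% of all genes.

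Single snoRNAs were tested with limma over all 22180 genes, with Benjamini-Hochberg adjustment. None passed an adjusted p of 0.05, and neither did any other gene (0% of genes called). The smallest limma adjusted p was 0.170 in box C/D (Snord49b) and 0.186 in box H/ACA (Snora44). At an unadjusted p under 0.05 there were 10 box H/ACA and 19 box C/D snoRNAs higher in Polg mutant cells, 29 in all, where 4.18% of all genes were higher by the same rule. Lower in Polg mutant cells at that level were 0 snoRNAs, against 5.33% of all genes. Nothing in the labels makes the replicates separate animals, so the p-values measure the spread among these arrays, and that may be technical only.

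**Figure D1:**
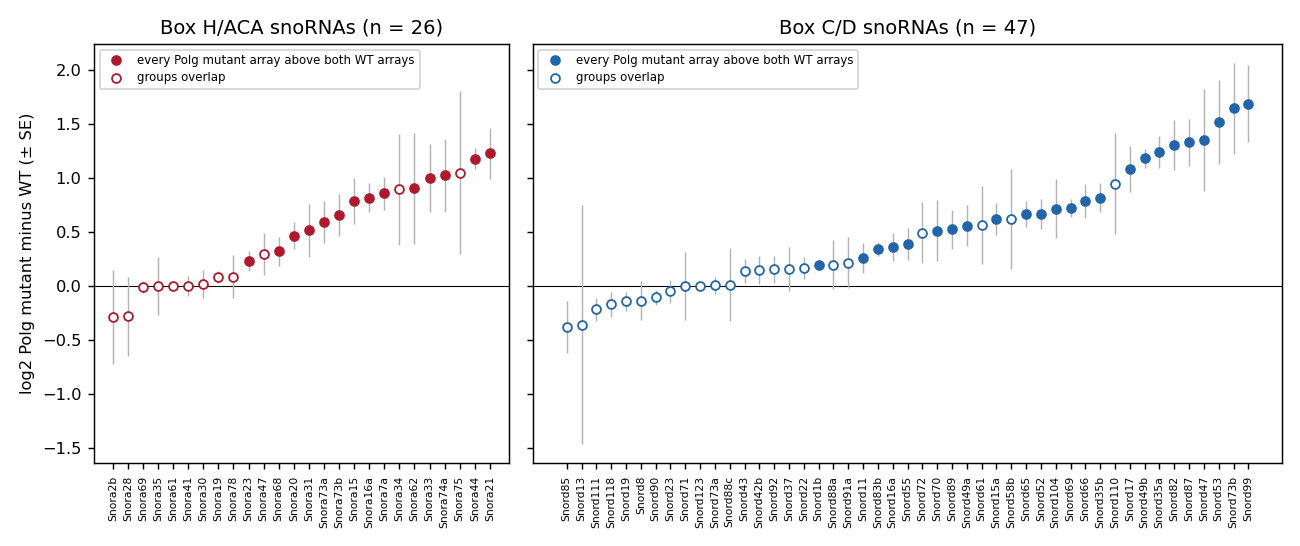
Log2 difference, Polg mutant minus WT (± limma SE; 3 and 2 arrays), of each of the 26 box H/ACA (left) and 47 box C/D (right) snoRNAs, in rising order. Filled points, 14 and 24 of them, mark snoRNAs with every Polg mutant array above both WT arrays, and no snoRNA shows the opposite.

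The median difference also varied with signal level. Among snoRNAs with a mean of 6 or more over the 5 arrays, the median difference was 0.63 for 18 box H/ACA and 0.62 for 27 box C/D snoRNAs. All mutant arrays exceeded both WT arrays in 12 of these 18 and 19 of these 27, where 16.7% of all genes of that level did. Below a mean of 6, the medians were 0.19 in both classes, over 8 and 20 snoRNAs. The same held for 2 of the 8 and 5 of the 20, where 3.52% of all genes of that level did. The mean includes the mutant arrays, and Snora31 and Snora74a reach 6 only through them. Split by the WT mean alone, chosen after seeing the data, the medians were 0.63 at 6 or more (n = 16) and 0.38 below (n = 10) for box H/ACA and stayed at 0.62 and 0.19 for box C/D. A difference of at least 1 log2 unit was seen for 4 box H/ACA and 9 box C/D snoRNAs, against 150 of all 22180 genes. All 13 had a mean of 6 or more, where 135 of 8174 genes reached that difference. Of these 13, 12 had a WT mean of 6 or more, the exception being Snora74a. Background is not known for any probe set, and 27 of the 73 snoRNAs (8 and 19 in the 2 classes) carry the same value on at least 2 arrays.

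**Figure D2:**
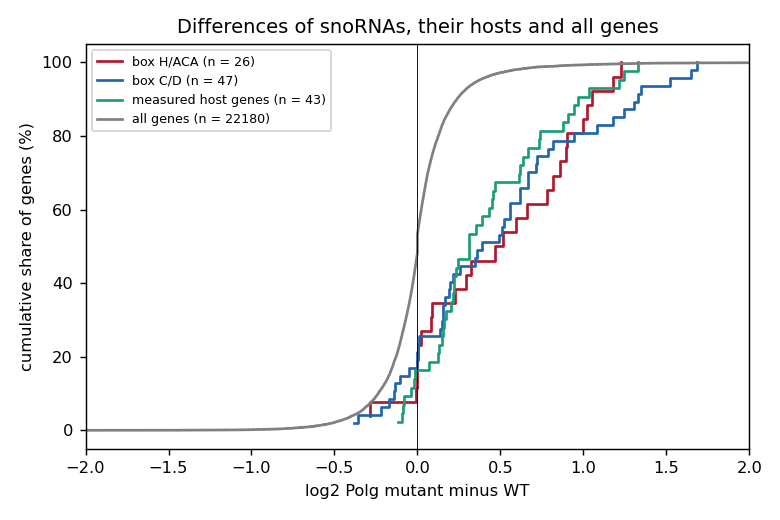
Cumulative share (%) of box H/ACA snoRNAs (n = 26), box C/D snoRNAs (n = 47), their measured host genes (n = 43) and all 22180 genes against the log2 difference, Polg mutant minus WT. The 2 snoRNA curves run close together (medians 0.49 and 0.39), with the hosts at a median of 0.31 and all genes at 0.00.

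Among box H/ACA snoRNAs, Snora21, which lies in the ribosomal protein gene Rpl23, had the largest difference. It read 9.57, 9.52 and 9.78 in Polg mutant cells against 8.07 and 8.71 in WT cells, a difference of 1.23 ± 0.23 (SE, limma adjusted p = 0.277), or 2.34-fold. The 3 Polg mutant arrays had an SD of 0.14 and stood clear of both WT arrays. Snora44, from the noncoding gene Snhg12, gave 10.24, 10.21 and 10.06 in Polg mutant cells against 9.09 and 8.89 in WT cells. Its difference of 1.18 ± 0.10 (SE, limma adjusted p = 0.186) had the smallest p of its class, and replicates of both groups were close.

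Snora74a, also called U19 and housed in the noncoding gene Snhg4, read 6.89, 6.07 and 6.58 in Polg mutant cells and 5.77 and 5.21 in WT cells, a difference of 1.02 ± 0.34 (SE). Snora33, housed in the ribosomal protein gene Rps12, read 11.64, 11.49 and 11.75 in Polg mutant cells against 11.08 and 10.18 in WT cells, a difference of 0.998 ± 0.31 (SE). WT replicate 2 was the lower of the WT pair in both, and without it the Snora33 difference was 0.548. The dimmer of the 2 Snora33 probe sets gave 8.75, 7.14 and 8.08 in Polg mutant cells against 6.55 and 6.82 in WT cells, likewise without overlap. Snora7a, in Rpl32, read 8.31, 7.96 and 7.94 in Polg mutant cells against 7.31 and 7.11 in WT cells, a difference of 0.86 ± 0.15 (SE).

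Snora62, in the laminin receptor and ribosomal protein gene Rpsa, read 8.04, 6.54 and 7.61 in Polg mutant cells against 6.48 and 6.52 in WT cells. Its groups do not overlap, but Polg mutant replicate 2 sits by the WT arrays and the difference is 0.90 ± 0.52 (SE), or 0.581 without Polg mutant replicate 1. The U17 pair, Snora73a and Snora73b in Snhg3, belongs to the pre-ribosomal RNA cutting factors. Snora73a read 8.95, 8.73 and 9.09 in Polg mutant cells against 8.11 and 8.56 in WT cells, and Snora73b 9.43, 9.17 and 9.57 against 8.52 and 8.94. Their differences of 0.59 ± 0.19 and 0.66 ± 0.19 (SE) come from near copies that probes may not separate, and without WT replicate 1 that of Snora73a was 0.364.

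The box C/D class held the largest difference of all, at Snord99. This Snhg12 snoRNA read 8.37, 8.04 and 8.37 in Polg mutant cells against 7.07 and 6.07 in WT cells, 1.69 ± 0.36 higher (SE, limma adjusted p = 0.302), or 3.22-fold. Snord73b, in the ribosomal protein gene Rps3a1, read 10.64, 10.19 and 10.85 in Polg mutant cells against 9.44 and 8.39 in WT cells, 1.65 ± 0.42 higher (SE). Snord53, in the ribosome assembly gene Wdr43, read 10.08, 9.56 and 9.87 in Polg mutant cells against 8.83 and 7.81 in WT cells, 1.52 ± 0.39 higher (SE). In each of the 3, the WT arrays were about 1 log2 unit apart, with replicate 2 the lower, and the Polg mutant arrays were closer together. Without WT replicate 2 the Snord53 difference was 1.004.

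Snord47, from Gas5, a noncoding gene that carries many box C/D snoRNAs, showed the same spread, at 9.90, 9.56 and 9.53 in Polg mutant cells against 8.99 and 7.64 in WT cells. Its difference was 1.35 ± 0.47 (SE), or 0.676 without WT replicate 2. Snord87, from Snhg6, read 8.37, 8.03 and 8.14 in Polg mutant cells against 7.12 and 6.58 in WT cells, 1.33 ± 0.22 higher (SE). Snord82, in the nucleolin gene Ncl, read 12.37, 12.16 and 11.92 in Polg mutant cells against 11.10 and 10.58 in WT cells, 1.31 ± 0.23 higher (SE), or 2.48-fold. Snord35a, in Rpl13a, is known for its part in lipid-induced oxidative stress together with its neighbours. Its values were 9.81, 9.73 and 9.55 in Polg mutant cells against 8.63 and 8.28 in WT cells, a difference of 1.24 ± 0.15 (SE, limma adjusted p = 0.212). Snord104, in an unnamed noncoding gene (Gm36220), read 10.67, 9.92 and 10.58 in Polg mutant cells against 9.68 on both WT arrays, 0.71 ± 0.28 higher (SE).

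**Figure D3:**
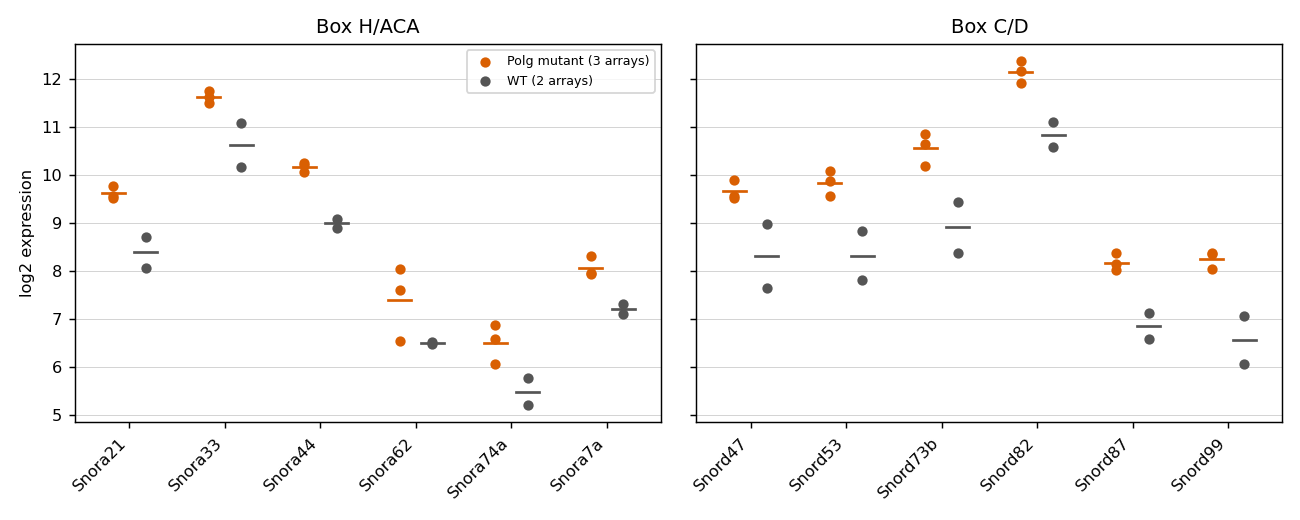
Log2 expression on each array for the 6 box H/ACA (left) and 6 box C/D (right) snoRNAs with the largest difference among those with a mean of 6 or more and no overlap. Points are arrays (Polg mutant n = 3, WT n = 2) and short lines are group means; Snora62 has a Polg mutant array at 6.54, next to the WT arrays, and in the other 11 the Polg mutant arrays stand clear of WT.

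Not every bright snoRNA was higher. Snora28, in the translation factor gene Eif5, read 10.10, 9.97 and 9.09 in Polg mutant cells against 9.97 and 10.04 in WT cells, a difference of -0.28 ± 0.37 (SE) that rests on Polg mutant replicate 3 and is 0.031 without it. Snora69, in Rpl39, read 6.23, 6.23 and 6.32 in Polg mutant cells against 6.21 and 6.34 in WT cells, a difference of -0.01 ± 0.06 (SE). Snord71 and Snord88c differed by 0.00 ± 0.31 and 0.01 ± 0.34 (SE), with SEs too wide to set a close limit. Snora61, in Snhg12, carries 1 value, 6.56, on all 5 arrays, as 1134 genes do, and such a probe set cannot show a difference.

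Snord13 and Snord118 are known in vertebrates to be transcribed from promoters of their own, and neither lies inside a gene of the RefSeq table. Snord13, the U13 RNA that helps acetylate small-subunit ribosomal RNA, read 7.81, 10.65 and 10.69 in Polg mutant cells against 10.21 and 9.94 in WT cells. Polg mutant replicate 1 alone was low, the difference was -0.36 ± 1.11 (SE), and without that array it was 0.59. Snord118, the U8 RNA, read 5.20, 5.45 and 5.45 in Polg mutant cells against 5.45 and 5.63 in WT cells, a difference of -0.17 ± 0.11 (SE) that ran from -0.263 to -0.084 with 1 array left out. The other snoRNA outside any listed gene, Snord89, was 0.52 ± 0.18 higher (SE), without overlap. The U3 RNA, a box C/D member whose symbol here is Rnu3a, read 7.92, 7.74 and 8.19 in Polg mutant cells against 7.47 and 7.48 in WT cells, 0.47 ± 0.15 higher (SE, limma adjusted p = 0.479).

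Of the 73 snoRNAs, 70 lie inside the span of a longer gene in the RefSeq table, in 56 different hosts, and 43 of these hosts had a probe set of their own. A host was the shortest such gene, and 6 snoRNAs lie in the spans of 2 genes. By host, 20 snoRNAs lie in noncoding genes, 23 in genes of ribosomal proteins or translation factors and 27 in other genes. Their median differences were 0.66, 0.39 and 0.25. Mutant arrays all exceeded both WT arrays for 14 of the 20, 13 of the 23 and 10 of the 27, against 8.36% of all genes. Levels differ between these sets: among snoRNAs with a mean of 6 or more the medians were 0.67 (n = 17), 0.50 (n = 16) and 0.62 (n = 10). At that level the counts were 12 of 17, 12 of 16 and 6 of 10, against 16.7% of all genes.

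The host genes were higher as well. Over the 43 measured hosts the median difference was 0.31, with 36 positive and 7 negative. All mutant arrays exceeded both WT arrays in 24 of the 43 and lay under both in 0, against 8.36% and 9.73% of all genes. At an unadjusted limma p under 0.05, 19 of the 43 were higher, against 4.18% of all genes. Hosts are bright, and of the 38 with a mean of 6 or more 23 lay above, 0 below and 18 were higher at that p, against 16.7%, 20.6% and 9.36% of all genes of that level. Hosts that encode ribosomal proteins or translation factors had a median of 0.62 (n = 15), noncoding hosts 0.35 (n = 9) and other hosts 0.21 (n = 19). Rps12, the host of Snora33, read 11.31, 11.07 and 11.00 in Polg mutant cells against 9.67 and 9.93 in WT cells, 1.33 ± 0.14 higher (SE, limma adjusted p = 0.20). Rpl32 was 1.25 ± 0.26 higher (SE), Snhg6 1.22 ± 0.32 and Rpsa 0.95 ± 0.12. Eif5, the host of Snora28, differed by -0.04 ± 0.15 (SE). The hosts of Snora21, Snord35a, Snord47 and Snord104 had no probe set of their own symbol alone and were not analysed here.

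Host and snoRNA differences were loosely related. Over 57 pairs Pearson's r was 0.356 and Spearman's rho 0.371, given as a description, since pairs share arrays and 11 hosts hold more than 1 snoRNA. By class, rho was 0.538 over 24 box H/ACA pairs and 0.239 over 33 box C/D pairs, and the gap was not tested. In 30 of the 57 pairs the snoRNA difference exceeded the host's, and the median gap was 0.02. SnoRNA and host were both free of overlap, and higher in the mutant, in 23 pairs, the snoRNA alone in 5, the host alone in 11 and neither in 18. Snord82 differed by 1.31 while its host Ncl, which encodes a nucleolar protein, read 9.34, 9.30 and 9.17 in Polg mutant cells against 9.21 and 8.90 in WT cells, 0.21 ± 0.12 higher (SE). The reverse held at Eef1b2, a translation elongation factor gene. It was 0.90 ± 0.12 higher (SE), while its snoRNA Snora41 had a mean of 5.03 and differed by 0.00 ± 0.09. At Rpl23a, 1.03 ± 0.27 higher (SE), Snord42b differed by 0.15 ± 0.13.

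**Figure D4:**
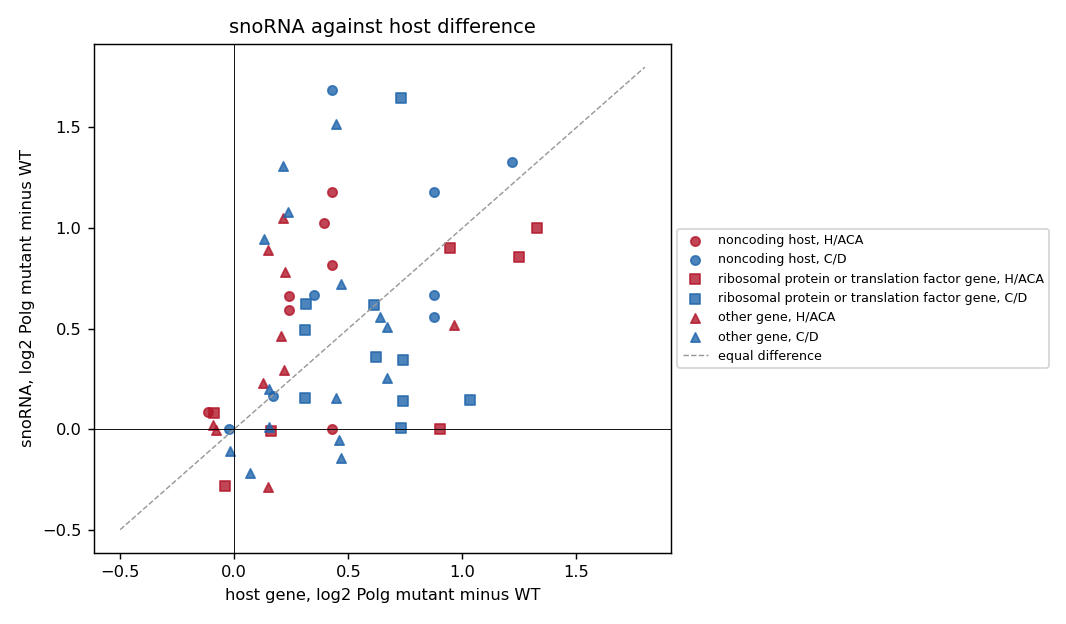
Log2 difference, Polg mutant minus WT, of each snoRNA (vertical) against that of its host gene (horizontal) for 57 pairs; colour gives the box class, shape the kind of host, and the dashed line equal differences. Points spread on both sides of the line, with 30 of 57 above it.

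SnoRNAs of 1 host did not always differ by like amounts. Of the 11 hosts with several measured snoRNAs, which hold 25 of the 73, 6 had snoRNAs that differed from each other by more than 0.5 log2 units. Snhg12 holds Snora16a, Snora44, Snora61 and Snord99. Snora16a read 8.31, 8.09 and 8.39 in Polg mutant cells against 7.32 and 7.58 in WT cells, 0.82 ± 0.13 higher (SE), beside 1.18 for Snora44, 1.69 for Snord99 and the single repeated value of Snora61. The Snhg12 probe set itself read 6.07, 6.18 and 6.46 in Polg mutant cells against 5.62 and 5.99 in WT cells, 0.43 ± 0.18 higher (SE). In Rps3a1, Snord73b was 1.65 higher while Snord73a, at a mean of 4.34, differed by 0.00. In Wdr43, Snord53 was 1.52 higher while Snord92, at a mean of 3.08, differed by 0.15. The flat partner was the dim one in these last 2 hosts, and whether it, or Snora61, was measured at all is not known.

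In the noncoding gene 2410006H16Rik all 3 snoRNAs and the host itself were free of overlap, with differences of 0.56 to 1.18 among the snoRNAs. Snord49b read 10.62, 10.49 and 10.74 in Polg mutant cells against 9.47 and 9.40 in WT cells, 1.18 ± 0.09 higher (SE), the smallest limma p of all 73. Snord49a read 7.41, 6.93 and 7.13 in Polg mutant cells against 6.75 and 6.45 in WT cells, and Snord65 7.77, 7.98 and 7.77 against 7.04 and 7.31. These differences were 0.56 ± 0.19 and 0.67 ± 0.12 (SE). The host read 9.92, 9.54 and 9.62 in Polg mutant cells against 8.66 and 8.97 in WT cells, 0.87 ± 0.17 higher (SE). The U17 host Snhg3 was 0.24 ± 0.08 higher (SE), also free of overlap, and its 2 snoRNAs lay within 0.07 of each other. The 2 snoRNAs of Nop58, Snord11 and Snord70, lay within 0.255 of each other, and both they and the host were free of overlap between the groups. Snord11 had a mean of 5.83 and Snord70 of 3.68, both under 6, and whether these 2 were measured at all is likewise not known.

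**Figure D5:**
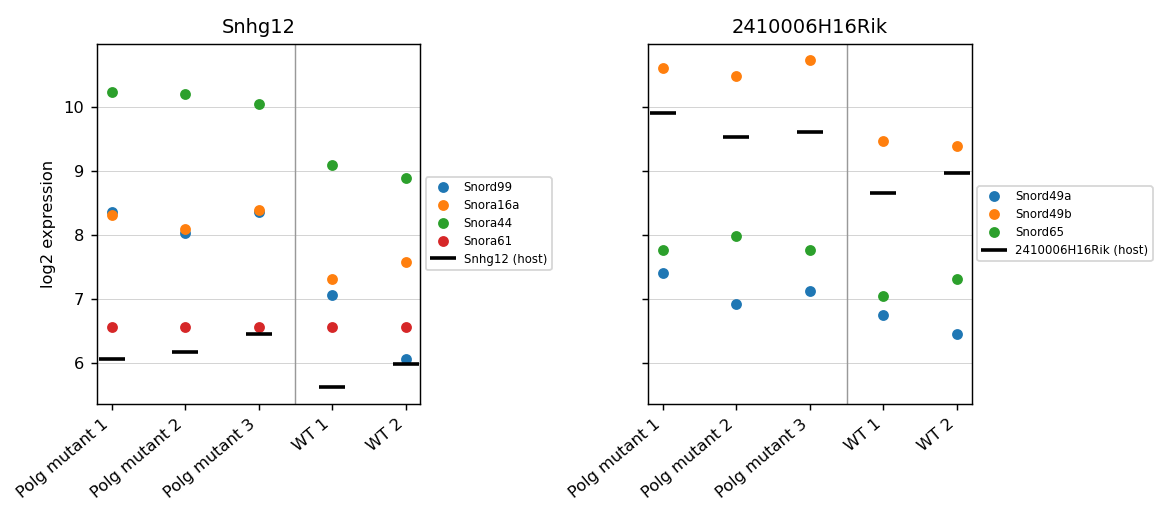
Log2 expression on each array of the snoRNAs in Snhg12 (left) and 2410006H16Rik (right), the hosts with 3 or more measured snoRNAs, with the host's own probe set as a black bar. Snora61 is flat at 6.56 on all 5 arrays; the other 6 snoRNAs are higher on each Polg mutant array than on either WT array.

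Hosts of snoRNAs are known for a run of pyrimidines at the start of the transcript, the feature of genes whose translation follows growth signals. The start windows of noncoding hosts are shown to let the shared letters be seen, 20 bases before to 25 after the annotated start, from RefSeq on GRCm38.p6. Capitals mark the tract searched for, a C followed by at least 4 bases that are each C or T, beginning 10 bases before to 20 after the start. They lie at chr1:161035146-161035190 (+) for the Gas5 start that holds a tract, chr4:132308658-132308702 (+) for Snhg12, chr4:132353662-132353706 (-) for Snhg3, chr11:62602857-62602901 (+) for 2410006H16Rik, chr17:34952444-34952488 (-) for 1110038B12Rik, the host of Snord52, and chr19:8723467-8723511 (+) for Snhg1, the host of Snord22.
Gas5: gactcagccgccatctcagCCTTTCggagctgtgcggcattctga
Snhg12: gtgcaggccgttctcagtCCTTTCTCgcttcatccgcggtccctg
Snhg3: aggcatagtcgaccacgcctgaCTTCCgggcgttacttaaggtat
2410006H16Rik: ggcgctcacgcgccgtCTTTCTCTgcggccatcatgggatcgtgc
1110038B12Rik: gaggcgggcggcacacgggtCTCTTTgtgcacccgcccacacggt
Snhg1: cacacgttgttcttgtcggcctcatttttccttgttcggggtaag

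The tract was present on the transcribed strand in 11 of 13 start windows (84.6%) from 11 noncoding hosts, and on the other strand in 1 (7.69%). The 2 windows of 1110038B12Rik overlap and hold the same tract, which is counted for each. The noncoding hosts Snhg4, Snhg6 and Gm26590 had no window. It was present in 7 of 14 windows of ribosomal protein and translation factor hosts (50%) and in 39.1% of 32851 start windows of all genes, with 44.9% on the other strand. These are descriptions of annotated starts, and the snoRNA differences do not test the tract.

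Genes for the proteins of both snoRNA particles were higher too. Nop58 and Nop56 are also snoRNA hosts and were already counted among the 43 measured hosts. Of the box C/D core, Nop58 read 8.28, 7.98 and 8.18 in Polg mutant cells against 7.50 and 7.45 in WT cells, 0.67 ± 0.11 higher (SE, limma adjusted p = 0.241). Snu13 was 0.41 ± 0.12 higher (SE) and Nop56 0.13 ± 0.05, and the fibrillarin gene Fbl had no probe set of its symbol alone. Of the box H/ACA core, Nop10 read 8.70, 8.54 and 8.51 in Polg mutant cells against 7.81 and 8.09 in WT cells, 0.63 ± 0.12 higher (SE). Dkc1, the pseudouridine synthase gene, was 0.63 ± 0.23 higher, Nhp2 0.33 ± 0.07 and Gar1 0.15 ± 0.09. The mutant arrays all exceeded both WT arrays in 6 of these 7 genes, the exception being Gar1, and 4 were higher at an unadjusted limma p under 0.05. All 7 have a mean over 6, where the shares of all genes are 16.7% and 9.36%.

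Genes of assembly and turnover had smaller medians. Of 11 measured assembly factors 4 had all mutant arrays above both WT arrays and 0 below, with a list median of 0.17, against 8.36% and 9.73% of all genes. These 4 have a mean over 6, where 16.7% of genes lie above and 20.6% below. Tcof1, which encodes a nucleolar factor, was 0.30 ± 0.06 higher (SE), the helicase gene Ruvbl2 0.29 ± 0.08 and Shq1, a dyskerin chaperone gene, 0.31 ± 0.11. Of 15 genes of snoRNA processing and decay 4 lay above and 2 below, with a list median of 0.02; all have a mean over 6, where 16.7% of genes lie above and 20.6% below, so these counts are near the background. Ddx24 was 0.32 ± 0.10 higher (SE), while Zcchc8, of the complex that hands RNA to the nuclear exosome, differed by -0.40 ± 0.10. Dbr1, the enzyme that opens the intron lariats from which snoRNAs are trimmed, differed by -0.16 ± 0.18. A separate list of noncoding host genes, 16 of 19 measured, overlaps the hosts already counted and had a median of 0.22. Of the 16, 6 lay above and 0 below, against 8.36% and 9.73% of all genes. Those 6 also have a mean over 6, where the shares are 16.7% and 20.6%. In this list, beside Snhg6, Snhg17 was 0.57 ± 0.14 higher (SE) and Zfas1 0.72 ± 0.20.

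Other small RNAs, with U3 left out, had a median difference of 0.00 over 486 genes. Most are the 472 microRNA genes, of which 19 lay above and 13 below. Of 14006 genes under a mean of 6, 3.52% lie above and 478 below. The microRNA genes had a median level of 3.80 and 288 repeat a value between arrays, so their median of 0.00 says little. The 5 measured small Cajal body RNAs (Scarna symbols) share the boxes of snoRNAs but act on spliceosomal RNA. They had a median of -0.02 with 0 above and 0 below, against 8.36% and 9.73% of all genes. All but Scarna8 have a mean over 6, where 16.7% of genes lie above and 20.6% below. Scarna17 read 10.81, 10.67 and 10.88 in Polg mutant cells against 10.81 on both WT arrays. Rn7sk, the 7SK RNA that restrains transcription elongation, differed by -0.03 ± 0.03 (SE) and Terc, the telomerase RNA and itself a box H/ACA RNA, by -0.05 ± 0.15. Over 9 spliceosomal, 7SK, Y and related RNAs, again without U3, the median was 0.18. Above lay 3 and below 0, against 8.36% and 9.73% of all genes. The 3 were the minor spliceosomal Rnu12 (0.31 ± 0.09 higher, SE), Rny1 and Rny3. The last pair, which form Ro particles, were 1.40 ± 0.45 and 0.66 ± 0.23 higher (SE), from WT means of 3.80 and 5.28 that are not shown to be above background.

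Erythroid markers and markers of other cells varied in level between these arrays. Erythroid genes were the brightest list, at a mean of 11.78, 11.88 and 11.84 in Polg mutant cells against 12.22 and 12.04 in WT cells, and for 10 of 11 measured markers the mutant arrays all lay under both WT arrays, where 20.6% of genes with a mean of 6 or more do. Neutrophil markers averaged 8.42, 8.90 and 7.27 in Polg mutant cells against 8.03 and 7.02 in WT cells over all 16 genes, of which 1 (Chil3, 1.73 ± 0.37 higher, SE) had no overlap. Over the 6 pairs of a Polg mutant with a WT array, the median snoRNA difference ran from 0.282 to 0.516, the neutrophil difference from -0.754 to 1.88 and the erythroid difference from -0.437 to -0.161, negative in each pair. Megakaryocyte markers (8 of 10 measured) averaged 5.77, 5.90 and 5.60 in Polg mutant cells against 5.80 and 6.41 in WT cells. In this list Ppbp read 5.14 and 8.41 on the WT arrays, and Gp9 differed by -1.36 ± 0.14 (SE, limma adjusted p = 0.20), with all mutant arrays under both WT arrays. Macrophage markers (10 of 10) averaged 5.19, 5.14 and 5.07 in Polg mutant cells against 5.01 and 5.11 in WT cells, and lymphocyte markers (8 of 10) 4.98, 4.69 and 4.58 in Polg mutant cells against 5.18 and 4.86 in WT cells. The part of cell makeup and of RNA quality in the snoRNA difference was not tested.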

How the data were processed

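The values, deposited by the authors on a log2 scale, cover 41345 probe sets with 1 column per array, and the submitters' processing notes name RMA and Partek 6.5 without role or order. No genome build of the probe annotation is stated, so no RefSeq coordinates of snoRNAs are printed. Values were used as deposited. Probe sets with 1 symbol (23521) were kept, the brightest per symbol, giving 22180 genes; no dim gene was removed. Genotype was fitted as the single term with limma 3.58.1 in R 4.3.3 over all genes and 5 arrays, two-sided, and the fit was tested on simulated data. Exact permutation of 5 arrays cannot go below p = 0.1. All 73 snoRNAs matched RefSeq (GRCm38.p6) by gene ID. Hosts were taken by span alone, since that table gives no strand; 23 of 23 hand-written pairs gave the same host. Of named snoRNAs, text gives values for the 6 of largest non-overlapping difference per class at a mean of 6 or more. It also gives them for the 3 brightest, the 2 flattest, members of hosts with at least 3, and a fixed set. Snord11, Snord42b, Snord70, Snord73a, Snord89, Snord92, Snora31, Snora41, Snora78, Ppbp, Eef1b2, Rpl23a, Dbr1, Scarna17, Rn7sk and Terc were named after their values were seen. Members and lists were chosen with earlier results of these data known.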

Additional observations from a re-analysis of the deposited data

Results flagged for a closer look

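The 43 probe sets that name a snoRNA beside another gene lie outside the comparison because their signal cannot be given to 1 gene. For 16 of them the mutant arrays all exceeded both WT arrays, and for 0 the reverse held, against 8.36% and 9.73% of all single-symbol genes. Their median log2 difference, Polg mutant minus WT, was 0.116, and 40 of the 43 were positive. Groups of 2 and 3 arrays are too small to screen for outlying samples.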

How the results depend on the processing

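The 8 processing alternatives and each left-out array kept both class medians and the host median positive. Keeping genes that exceed 6 on 2 or more arrays gave 0.62 for box C/D and 0.35 for hosts, and restricting to genes with 5 distinct values gave 0.74 for box H/ACA, 0.67 for box C/D and 0.46 for hosts; both keep fewer and brighter snoRNAs. Hand-written host pairs gave a host median of 0.61. Genes past an adjusted p of 0.05 numbered 0 as reported, 11 with that level filter, 114 with 5 distinct values, 5 without moderation and 9 after quantile normalization. With 5 distinct values Snora44, Snord35a, Snord49b, Snord82 and Snord87 passed, all higher, and after quantile normalization Snora44. Leaving out 1 array gave 0 to 1781 such genes (924 without WT replicate 2), 0 to 2 lower snoRNAs at an unadjusted p under 0.05 and host medians of 0.28 to 0.35; a lone WT array is assumed to vary like the mutant arrays. Higher snoRNAs at that p numbered 21 to 28 with 1 mutant array left out. The share of all genes at that p is not given here for any fit with an array left out. The counts of lower and higher snoRNAs therefore have no background beside them. Without WT replicate 1, Snora33 (difference 1.449), Snora44 (1.279), Snord99 (2.186) and Snora78 (-0.2168) passed. Without WT replicate 2, Snora78 (0.3872), Snord92 (0.3353) and Snord90 (-0.2073) passed. Many other genes passed in these fits, so passing does not set these snoRNAs apart. Snora78 carries 1 value, 7.24, on all 3 mutant arrays, and its direction turns with the WT array left out. Snord92 and Snord90, at means of 3.08 and 3.13, had SDs of only 0.014 and 0.010 over the mutant arrays. For Snora78, Snord92 and Snord90, passing thus rests on almost no spread.

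The numbers 1 and 2 shared by both groups do not pair the samples by label. A replicate block gave class medians of 0.45 and 0.31. At an unadjusted limma p under 0.05 it gave 24 higher and 2 lower snoRNAs. The share of all genes in that fit is not given here, so these counts cannot be set against a background. Same-numbered deviations correlated at 0.188 for number 1 and -0.201 for number 2. The deviations of 2 WT arrays are exact opposites, so each WT array mirrors the other in such correlations. Over all pairs of a WT with a Polg mutant array, the correlations ran from -0.312 to 0.312. Directions turned for 5 named snoRNAs: Snora28 was 0.031 in the replicate block (-0.47 to 0.031 without 1 array), Snora69 0.0023 after median centring (-0.074 to 0.051), Snord71 0.010 after centring and 0.096 in the block (-0.25 to 0.20), Snord88c -0.20 in the block (-0.26 to 0.29), and Snord13 -0.85 to 0.59 without 1 array. The cause was not tested.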
